A study of Mus musculus with 5 samples.

Results

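The Pi16 Dpp4 progenitors of resting muscle were 3077 of the 8107 cells kept from 1 library of sorted mouse hindlimb muscle cells, or 37.95% (95% exact binomial interval 36.9 to 39.0), and 3077 of the 37519 cells kept over the 5 libraries of the series. A kept cell had at least 500 detected genes and at most 10% of its UMIs (unique molecular identifiers, 1 per captured transcript molecule) from mitochondrial genes. A progenitor also had fewer than 5 Rgs5 UMIs per 10000, since Rgs5 marks pericytes, and at least 1 UMI of at least 3 of the 5 genes Dpp4, Pi16, Cd55, Smpd3 and Efhd1. The cells were thus chosen by the counts of these 5 genes and of Rgs5, whose levels are given as a description. Every other value below comes from the same cells of 1 library and carries no test: cells of 1 animal or pool are not replicates, and the 95% Poisson and binomial intervals given here cover counting error only. The library was compared within itself, the progenitors against all 5030 other kept cells and against 3342 other cells with at least 1 UMI of Pdgfra and few of Rgs5.

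All libraries came from C57BL/6J mice in which both Hic1 alleles carry CreERT2, a Cre recombinase that tamoxifen activates in cells that use the Hic1 promoter. The 4 sarcoma libraries were tdTomato cells of epithelioid sarcomas at endpoint, from Hic1CreERT2/CreERT2;Rosa26LSLtdTomato/LSLtdTomato;Smarcb1FL/FL animals, so Smarcb1 could be deleted in the labelled cells. The muscle library was tdTomato mesenchymal progenitors of quiescent hindlimb muscle from Hic1CreERT2/CreERT2;Rosa26LSLtdTomato/+ animals with no floxed Smarcb1 named. Tamoxifen was given to both groups at 8 weeks of age as 2.5 mg a day for 5 days, with a washout of 10 days. How many animals went into the muscle library, and whether the sarcomas came from separate animals, is not stated, and only cells that had used the Hic1 promoter around the time of tamoxifen could be sorted.

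Fibroblast-like progenitors occupy the interstitium of muscle. They carry the receptor Pdgfra, make collagen and other matrix proteins, and after injury supply signals and matrix to the regenerating fibres. In many mouse tissues a subset marked by Dpp4 and Pi16 lies in the outer sheath of vessels and in fascia, and has been placed upstream of more specialised fibroblasts such as those marked by Col15a1. Dpp4 is a surface dipeptidyl peptidase, Pi16 a secreted protein named as a peptidase inhibitor, Cd55 a brake on complement at the cell surface, Smpd3 a neutral sphingomyelinase that makes ceramide, and Efhd1 a calcium-binding protein of mitochondria.

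The 5 genes were detected together in a large part of these cells. All 5 were found in 859 progenitors (27.9%), 4 in 1111 and 3 in 1107. Pi16 was present in 94.2% and Cd55 in 93.9% of them, Efhd1 in 81.1%, Dpp4 in 74.6% and Smpd3 in 48.1%. Among all other kept cells the shares were 32.9% for Pi16, 33.8% for Cd55, 10.6% for Efhd1, 9.74% for Dpp4 and 4.31% for Smpd3. The commonest combination short of all 5 lacked only Smpd3 and made up 23.6% of the progenitors. Deeper cells pass such a rule more easily: the median progenitor held 9473 UMIs and 3104 genes, against 6477 UMIs and 2424 genes in all other kept cells and 7502.5 UMIs in the other Pdgfra-detected cells. With every cell thinned to 2000 UMIs, 17.1% of muscle cells still passed (1317 of 7723). The share from mitochondrial genes was 2.26% in the median progenitor and 2.68% in the median other cell, and ribosomal protein genes took 13.1% of UMIs in the progenitors and 10.8% in the other cells.

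Summed over cells and given as CPM (UMIs of a gene in every 1000000 UMIs of the class), Pi16 stood at 1772 in the progenitors (95% Poisson interval 1757 to 1788) and at 279 (272 to 285) in the other Pdgfra-detected cells. Dpp4 stood at 215 and 21.1 CPM, Cd55 at 542 and 109, Smpd3 at 195 and 10.8, and Efhd1 at 251 and 23.3 CPM in the same order of classes. Outside the progenitors these levels were low and close to those of the 753 Rgs5-high cells, the pericytes and other mural cells of the library, which held 206 CPM of Pi16, 18.1 of Dpp4, 72.5 of Cd55, 20.9 of Smpd3 and 31.2 of Efhd1. Free RNA from broken cells can give a droplet some UMIs, and its level was not measured here. By the rule the other Pdgfra-detected cells held fewer than 3 of the 5 genes, while the Rgs5-high cells had no such limit. Their levels are thus not like for like and set no floor for expression. At least 3 of the 5 genes were found in 33 of the 753 Rgs5-high cells (4.38%, interval 3.04 to 6.10), whose median depth was 3347 UMIs. At 2000 UMIs per cell the share was 44.3% of the progenitors and 2.27% of the Rgs5-high cells.

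Each of the 5 genes was higher in cells chosen without it. The 5 were picked as a set with earlier results of these data known. The ratios below therefore describe that set and give it no independent support. When 1 gene was left out and at least 2 of the other 4 were required, the chosen cells held 167 CPM of Dpp4 and the remaining cells with little Rgs5 held 30.4 CPM, a ratio of 5.48. The ratio was 5.62 for Pi16, 4.70 for Cd55, 9.13 for Smpd3 and 6.40 for Efhd1. The chosen cells were again the deeper ones, with a median of 9026.5 UMIs against 6701 in the case of Dpp4.

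Pi16 lies on the plus strand of chromosome 17 (chr17:29317680-29330593), Dpp4 on the minus strand of chromosome 2 (chr2:62330073-62412231) and Sema3c, a leading gene of the comparison below that is outside the rule, on the plus strand of chromosome 5 (chr5:17574281-17730268), all in build GRCm38. Their promoters are shown because the 3 genes were high in the same cells. Each runs from 250 bases before to 50 bases after the start of the gene in RefSeq (GRCm38.p6). The windows are chr17:29318632-29318931 on the plus strand for Pi16, chr2:62412182-62412481 on the minus strand for Dpp4 and chr5:17574566-17574865 on the plus strand for Sema3c. The gene spans given first are from GENCODE, and those of Pi16 and Sema3c start upstream of these windows. Only the Dpp4 window holds the start of its GENCODE span. Capitals mark matches on either strand to GGAATG, the core that TEAD factors bind, to TGANTCA, which AP-1 binds, and to GGGCGG, which SP factors bind.
Pi16: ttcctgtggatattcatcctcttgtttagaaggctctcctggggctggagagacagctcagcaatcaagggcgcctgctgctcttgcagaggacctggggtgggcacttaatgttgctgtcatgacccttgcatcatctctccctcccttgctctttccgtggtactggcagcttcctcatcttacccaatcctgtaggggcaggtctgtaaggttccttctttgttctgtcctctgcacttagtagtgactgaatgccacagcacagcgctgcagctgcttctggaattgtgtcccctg
Dpp4: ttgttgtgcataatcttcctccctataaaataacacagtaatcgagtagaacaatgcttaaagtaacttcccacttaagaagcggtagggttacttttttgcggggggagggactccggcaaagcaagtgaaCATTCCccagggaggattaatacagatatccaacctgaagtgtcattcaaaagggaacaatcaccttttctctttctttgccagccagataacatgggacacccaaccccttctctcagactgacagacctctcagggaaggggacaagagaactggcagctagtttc
Sema3c: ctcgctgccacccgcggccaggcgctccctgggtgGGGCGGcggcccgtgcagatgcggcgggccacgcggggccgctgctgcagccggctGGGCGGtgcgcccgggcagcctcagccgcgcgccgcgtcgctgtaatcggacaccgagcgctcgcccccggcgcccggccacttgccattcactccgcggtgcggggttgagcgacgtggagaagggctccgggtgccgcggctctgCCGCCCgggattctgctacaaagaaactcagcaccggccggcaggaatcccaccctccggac
Dpp4 held 1 match to GGAATG, Sema3c held 3 to GGGCGG and Pi16 held none of the 3 motifs. Of all 27025 promoters of this length, 14.6% held GGAATG, 7.93% TGANTCA and 35.9% GGGCGG. Among 174 promoters of genes at least 2-fold higher in the progenitors than in the other Pdgfra-detected cells, these shares were 13.8%, 8.62% and 58.0%. Among 221 promoters of genes at least 2-fold lower in the progenitors, they were 17.6%, 7.24% and 60.2%. Among the 7815 promoters of all compared genes they were 11.6%, 4.53% and 67.8%. A match is a run of letters and not a bound site.

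Against the other Pdgfra-detected cells, 243 of 10132 genes were at least 2-fold higher in the progenitors (2.4%) and 336 were at least 2-fold lower (3.32%). Genes were compared where the whole library gave at least 5 CPM, and the median log2 ratio over all of them was 0.01. Among genes with at least 50 CPM in the progenitors, the largest excess was in Dact2, which encodes a modulator of WNT and TGF-beta signalling, at 87.4 CPM in the progenitors (84.1 to 90.8) and 3.79 CPM (3.07 to 4.63) in the other Pdgfra-detected cells. Stmn4, a microtubule regulator of the stathmin family, stood at 110 and 6.36 CPM. The carbonic anhydrase-related gene Car8 stood at 70.6 and 4.82 CPM, and Cmah, the hydroxylase that makes the sialic acid Neu5Gc, at 62.3 and 4.59 CPM. These 4 genes lay 13.6-fold to 23.0-fold higher in the progenitors and were rare outside them.

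Sema3c, a secreted guidance cue of the semaphorin family, was counted at 496 CPM in the progenitors (488 to 504) and 51.1 CPM (48.4 to 54.0) in the other Pdgfra-detected cells, a 9.69-fold difference. At 2000 UMIs per cell it was found in 49.6% of progenitors, 9.84% of other Pdgfra-detected cells and 5.83% of Rgs5-high cells, against unthinned shares of 78.5%, 24.2% and 7.97%. Anxa3, an annexin that binds membranes with calcium, stood at 941 and 164 CPM. The nuclear receptor gene Rorb (63.3 and 7.31 CPM), the actin-linked Limch1 (75.9 and 9.33 CPM) and the retinoic acid-making Aldh1a3 (67.8 and 10.7 CPM) were among the 15 genes with the largest ratios, as were 1700019D03Rik (126 and 22.7 CPM) and 4 genes of the rule. Against all other kept cells 13 of the 15 leading genes were shared with this comparison, with Islr2, a membrane protein of axons, at 67.5 and 11.5 CPM and Cd55 in place of Limch1 and Anxa3.

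**Figure D1:**
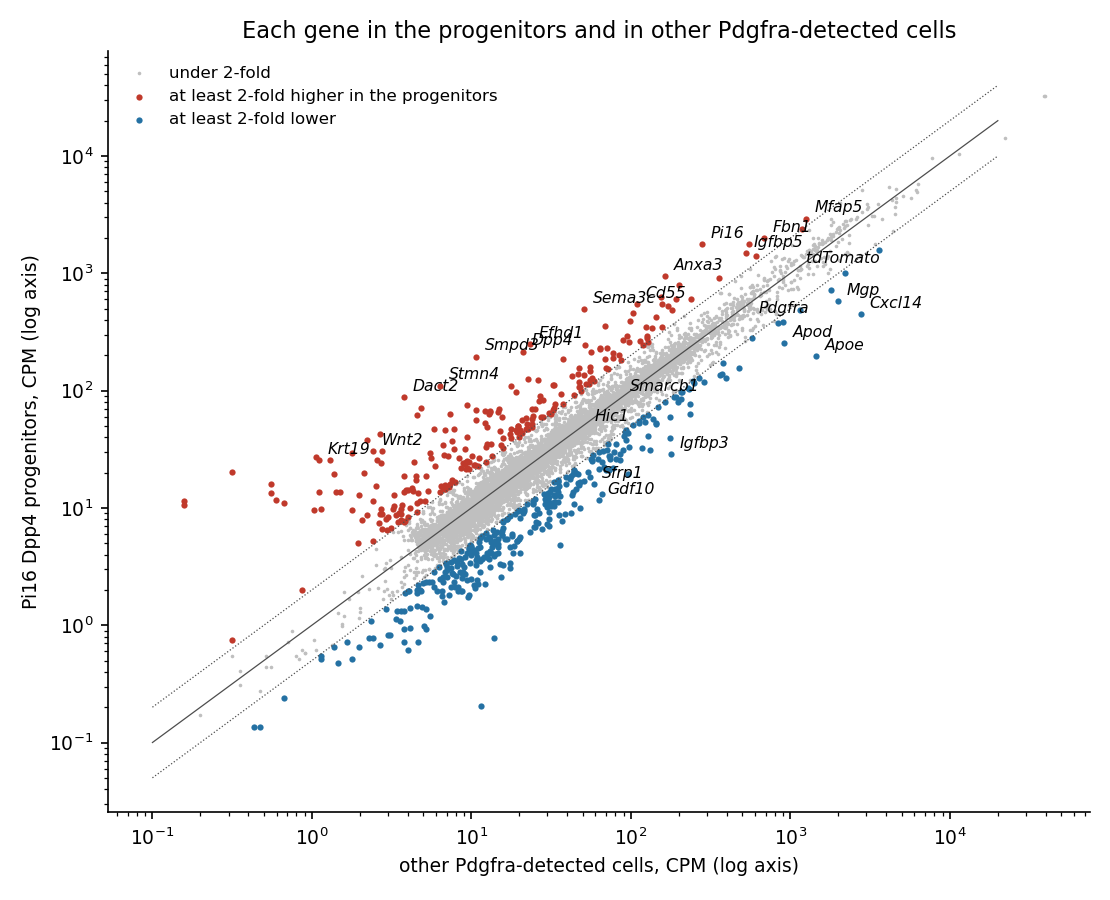
Each point is 1 gene of 10132, placed by its CPM in the 3342 other Pdgfra-detected cells (horizontal log axis) and in the 3077 progenitors (vertical log axis), with dotted lines at 2-fold. Sema3c at 496 and 51.1 CPM lies above the dotted lines and Apoe at 197 and 1459 CPM below them, while Hic1, tdTomato, Smarcb1 and Pdgfra lie between them. Pdgfra itself chose the cells of the horizontal axis.

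The lowest ratio of the progenitors to the other Pdgfra-detected cells, among genes with at least 50 CPM in the higher class, was that of Apoe, which carries lipids between cells. It stood at 197 CPM in the progenitors (192 to 202) and 1459 CPM (1444 to 1474) in the other Pdgfra-detected cells. The chemokine gene Cxcl14 stood at 446 CPM (439 to 454) and 2775 CPM (2754 to 2796). Igfbp3, which binds insulin-like growth factors, stood at 28.8 and 178 CPM, the BMP family gene Gdf10 at 11.7 and 63.4 CPM, and the secreted WNT antagonist Sfrp1 at 15.9 and 58.7 CPM. Mgp, which keeps matrix from calcifying, stood at 581 and 1992 CPM and the lipocalin gene Apod at 256 and 915 CPM. Further low genes were Sept4, Tmem176b, Fbln7, Mdk, Steap4, Meox1 and Nmb, at 3.47-fold to 5.04-fold lower levels in the progenitors. Apoe in the progenitors was below its level of 252 CPM in Rgs5-high cells, and Cxcl14 was above the 266 CPM of those cells. At 2000 UMIs per cell Apoe was found in 10.3% of progenitors and in 8.74% of Rgs5-high cells, and in 43.3% of other Pdgfra-detected cells. Unthinned, the Apoe shares were 21.4%, 13.5% and 55.95% in that order.

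Against all other kept cells, 249 genes were at least 2-fold higher (2.46%) and 523 at least 2-fold lower (5.16%). Among the lowest were genes of pericytes: Rgs5 itself at 6.26 CPM in the progenitors and 702 CPM in the other cells, and the potassium channel genes Kcnj8 (1.91 and 184 CPM) and Abcc9 (4.49 and 124 CPM). The limit on Rgs5 puts the mural cells on the other side, so these values follow from the rule.

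The label of the cells was set against marker genes of other types. The general progenitor markers were present in the progenitors and in the other Pdgfra-detected cells: Pdgfra at 405 and 559 CPM, the small proteoglycan gene Dcn at 14112 and 22177 CPM, and Col3a1 at 10429 and 11401 CPM. The stem cell antigen gene Ly6a stood at 2358 and 1311 CPM and Cd34 at 1401 and 809.5 CPM. Pdgfra was detected in 2683 progenitors (87.2%). The other Pdgfra-detected cells were chosen by this gene and the progenitors were not, so its levels are not like for like. Summed over their lists, 12 mural markers gave 117 CPM in the progenitors and 165 CPM in the other Pdgfra-detected cells, with 3 of them under 1 CPM in the progenitors. Of the other types, 10 tenocyte markers gave 437 and 863 CPM, 10 glial markers 69.0 and 84.4 CPM and 10 haematopoietic markers 4.36 and 6.01 CPM, the leukocyte gene Cd53 being at 0 in the progenitors. The 10 endothelial markers gave 134 and 70.6 CPM, of which the angiopoietin receptor gene Tek gave 131 and 65.5, with Pecam1 at 1.46 CPM and Vwf at 0 in the progenitors. The mesothelial list gave 26.4 and 1.78 CPM, nearly all of it Krt19 at 25.5 and 1.11 CPM, while Krt8, Krt18, Upk1b and Muc16 were at 0 in the progenitors. The synovial lining list gave 620 and 196 CPM, of which Cd55, a gene of the rule, gave 542 and 109 and Prg4 gave 63.0 and 73.2. The word progenitor is taken from the label of the sort, since these data hold no test of what the cells give rise to.

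The driver and the reporter stood at like levels in both classes. Hic1 stood at 48.5 CPM in the progenitors (46.0 to 51.1) and 52.1 CPM (49.4 to 55.0) in the other Pdgfra-detected cells, and tdTomato at 1074 and 1117 CPM. Smarcb1, the SWI/SNF subunit deleted in the sarcoma model, stood at 87.3 and 87.5 CPM. Of 18 SWI/SNF genes, 0 were 2-fold higher and 0 were 2-fold lower, with a median log2 ratio of 0.05.

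The lists of genes below were chosen with earlier results of these data known, and their counts are read against the 2.4% and 3.32% of all genes. Of 30 compared genes of adventitial and so-called universal fibroblast progenitors, none of them part of the rule, 23 were at least 2-fold higher in the progenitors than in the other Pdgfra-detected cells and 0 were 2-fold lower, with a median log2 ratio of 1.71. Wnt2, a secreted WNT ligand, stood at 30.5 and 2.41 CPM. The matrix genes Fbn1 (1986 and 687 CPM) and Mfap5 (2918 and 1258 CPM) and the surface receptor Cd248 (549.7 and 158 CPM) were also 2-fold higher. Fn1, which encodes fibronectin, stood at 1788 and 549.7 CPM, Creb5, a transcription factor of the CREB family, at 421 and 143 CPM, and Pcolce2, which aids the trimming of procollagen, at 801 and 200 CPM. Ly6a, Cd34 and the chemokine scavenger Ackr3 did not pass 2-fold here and did against all other kept cells, where 26 of the 30 genes passed. Ackr3 stood at 1080 CPM in the progenitors, 556 in the other Pdgfra-detected cells and 466 in all other kept cells.

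The opposite pattern was seen in genes of other fibroblasts. Of 16 lipid and adipogenic genes, 0 were 2-fold higher and 11 were 2-fold lower in the progenitors (median log2 ratio -1.26). The adipogenic regulators Pparg and Cebpa stood at 2.62 and 7.98 CPM and at 18.2 and 39.4 CPM, and the adhesion molecule gene Vcam1 at 26.2 and 80.4 CPM. Of 16 genes of Col15a1-type fibroblasts, 0 were 2-fold higher and 8 were 2-fold lower (median -1.02), with the basement membrane collagen Col15a1 at 383 and 898 CPM, the matricellular Smoc2 at 1593 and 3616 CPM and the secreted Crispld2 at 129 and 394 CPM. Hmcn2, a hemicentin of the matrix, stood at 363 and 671 CPM and did not pass 2-fold. Of 6 genes of Areg- and F3-marked regulatory fibroblasts, 0 were higher and 3 lower, namely Clec11a, Gdf10 and Igfbp3.

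**Figure D2:**
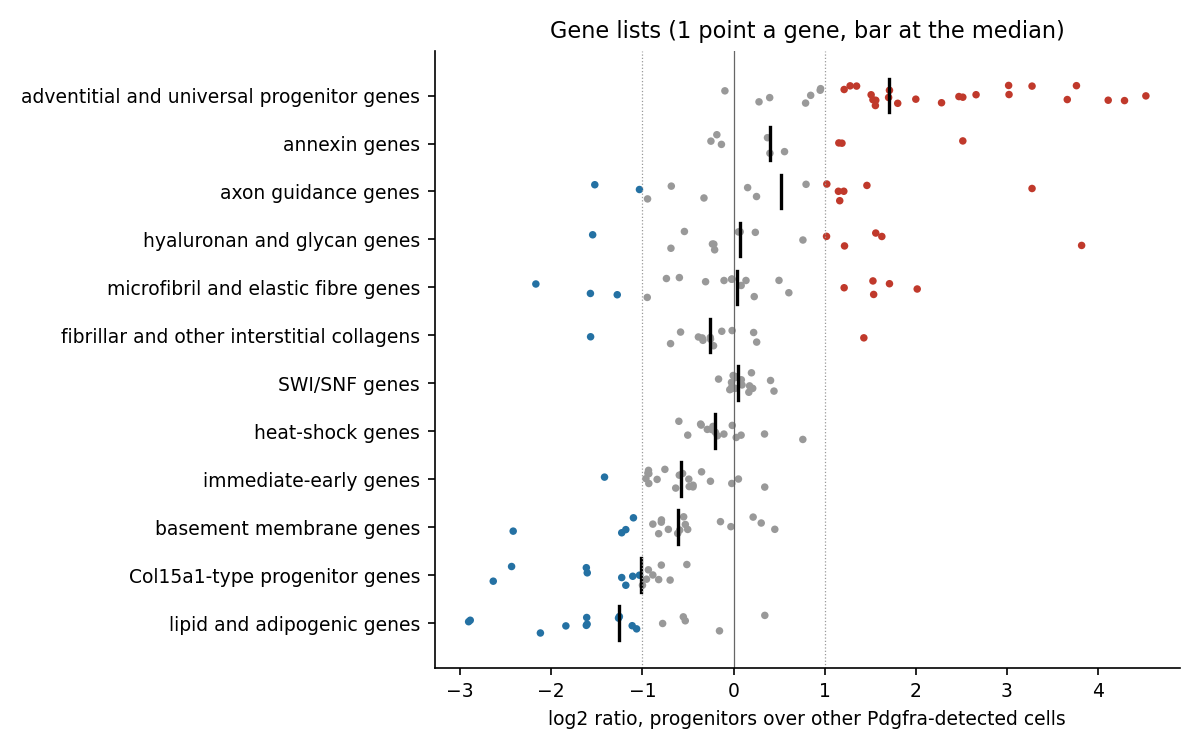
Each point is 1 gene of a list, placed by its log2 ratio of the progenitors over the other Pdgfra-detected cells (horizontal axis), with a bar at the list's median and dotted lines at 2-fold. The adventitial list lies to the right with a median of 1.71, the lipid and adipogenic list to the left with a median of -1.26, and the SWI/SNF list around 0.

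Matrix genes passed 2-fold in both directions. Of 20 microfibril and elastic fibre genes, 5 were 2-fold higher, among them Efemp1 (623 and 154 CPM), Emilin2 (232 and 70.7 CPM) and Adamtsl4, which helps fibrillin form fibres (69.2 and 23.8 CPM), and 3 were 2-fold lower, namely Mfap4 (118 and 287 CPM), Fbln7 (39.3 and 177 CPM) and the crosslinking enzyme gene Lox (21.3 and 63.2 CPM). Of 14 interstitial collagens, Col14a1 was higher (486 and 180 CPM) and Col23a1 lower (4.97 and 14.7 CPM), while Col1a1 stood at 4916 and 6238 CPM. Of 19 basement membrane genes, 0 were higher and 4 lower. Hyaluronan and glycan genes gave 5 higher and 1 lower of 15: the hyaluronan synthases Has1 (138 and 46.6 CPM) and Has2 (51.7 and 22.2 CPM), Ugdh, which makes the sugar they use (528 and 171 CPM), Chst1 (19.5 and 1.38 CPM) and the glypican gene Gpc6 (76.7 and 37.8 CPM) were higher, and the syndecan gene Sdc1 was lower (9.12 and 26.6 CPM).

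Among signalling genes, axon guidance genes gave 6 higher of 14, namely Sema3b, Sema3c, Sema3d, Ntn4, Robo1 and Efnb2, and 2 lower, Sema5a and Plxnd1. The netrin gene Ntn4 stood at 122 and 55.1 CPM and Plxnd1, a semaphorin receptor, at 8.68 and 24.9 CPM. Of 16 WNT ligands and modulators, 3 were higher (Wnt2, Sfrp2 and Dact2) and 4 lower (Sfrp1, Dkk3, Wif1 and Wisp2). Of 20 PDGF, FGF and other growth factor genes, Pdgfd (14.7 and 4.27 CPM) and Fgf2 (59.1 and 15.7 CPM) were higher and 3 were lower. Of 28 BMP and TGF-beta genes 3 were higher, among them Bmp3 (10.9 and 0.672 CPM) and the receptor gene Tgfbr2 (266 and 114 CPM), and 4 were lower. Of 21 chemokines and cytokines, the alarmin Il33 (159 and 55.8 CPM) and the decoy receptor Ackr2 (30.6 and 2.77 CPM) were higher and Cxcl9, Cxcl14 and Il1r1 lower. The cyclooxygenase genes Ptgs1 (24.3 and 2.73 CPM) and Ptgs2 (42.3 and 17.5 CPM) were the 2 higher of 7 prostaglandin genes (median log2 ratio -0.93), and the 2 lower were Hpgd, which breaks prostaglandins down (20.9 and 70.2 CPM), and the receptor gene Ptger4. Annexins gave 3 higher of 9, with Anxa1 at 1397 and 612 CPM. Of 39 mesenchymal transcription factors, Tbx5 (9.81 and 2.73 CPM), Creb5 and Pitx1 (8.99 and 3.52 CPM) were higher, and Meox1 (21.8 and 77.2 CPM), Klf5, Heyl and Nr2f2 were lower.

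Tissue dissociation is known to induce immediate-early and heat-shock genes, and few of them passed 2-fold against the other Pdgfra-detected cells. The 22 immediate-early genes summed to 13978 CPM in the progenitors, 22044 in the other Pdgfra-detected cells and 22170 in all other kept cells. Fos stood at 1794 CPM in the progenitors and 3417 CPM in the other Pdgfra-detected cells, and Jun at 2293 and 4377 CPM. Of 20 compared, 1 (Fosb) was 2-fold lower against the other Pdgfra-detected cells, at 139.7 and 373 CPM, and 7 were against all other kept cells. Of the narrower classes described below, 13 were 2-fold lower against the Lpl class, which summed to 36877 CPM, and 0 against the Smoc2 class. Among cells with little Rgs5, Fos stood at 4821 CPM with 0 genes of the rule and 1333 CPM with 5. Jun stood at 5562 and 1657 CPM in those cells. The 15 heat-shock genes summed to 14266 CPM in the progenitors and 16905 CPM in the other Pdgfra-detected cells, with 0 past 2-fold in either direction. What part these genes have in the differences above was not tested.

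The limit of 3 genes cut through levels that differed from class to class on both sides of it. These are sums over cells, and whether single cells change gradually or form distinct types was not tested. Cells with little Rgs5 and 0, 1, 2, 3, 4 or 5 of the genes numbered 1305, 1612, 1360, 1107, 1111 and 859, and their median depth was 5831, 7054.5, 8143.5, 8891, 9501 and 10107 UMIs. Just outside and just inside the limit, at 2 and 3 genes, Sema3c stood at 78.5 and 190 CPM, Anxa3 at 255 and 469 CPM and Fbn1 at 834 and 1270 CPM. Over the whole range from 0 to 5 genes, Sema3c stood at 36.7, 51.8, 78.5, 190, 538 and 779 CPM. Wnt2 stood at 1.47, 1.89, 3.01, 10.95, 34.0 and 47.8 CPM. Cxcl14 ran the other way, at 2304, 2690, 2195, 886, 264 and 183 CPM, and Apoe at 1916, 1648, 829, 357, 106 and 130 CPM. Smoc2 was highest in the middle, at 2126, 3247, 3675, 2590, 1348 and 799 CPM. Hic1 lay between 37.1 and 53.2 CPM and tdTomato between 1022 and 1207 CPM throughout. With each cell thinned to 2000 UMIs, in the same classes, Sema3c stood at 35.6 CPM with 0 genes and 910 CPM with 5.

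**Figure D3:**
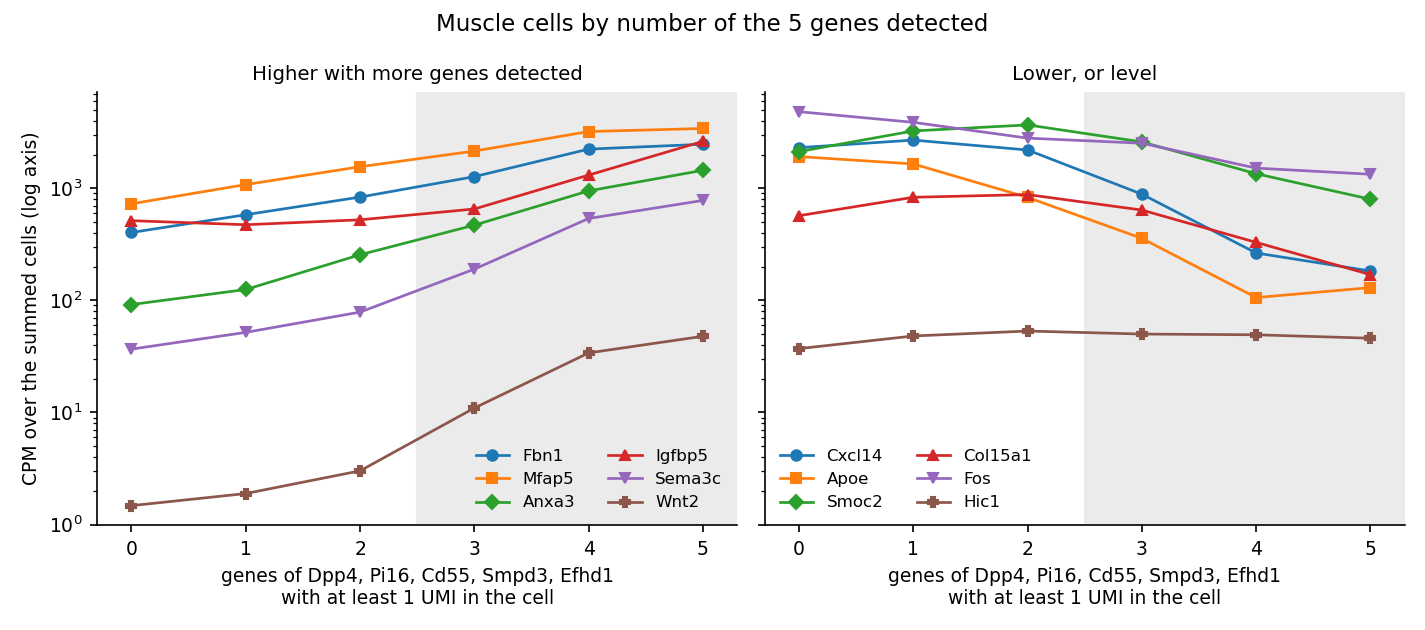
CPM (log axis) summed over muscle cells with little Rgs5 that held 0 to 5 of the 5 genes (horizontal axis), with the progenitors shaded. Sema3c and Wnt2 are higher with each further gene, Cxcl14 is at 183 CPM with 5 genes and 2304 CPM with 0, and Hic1 stays between 37.1 and 53.2 CPM.

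Within bands of like depth the size of the differences varied by gene. Among cells of 5000 to 10000 UMIs, 1263 progenitors and 1738 other Pdgfra-detected cells, Sema3c stood at 540 and 49.3 CPM and Apoe at 151 and 1409 CPM. Among cells of 2000 to 5000 UMIs (422 and 747 cells) Sema3c stood at 938 and 102 CPM, and among those of 10000 to 20000 UMIs (1266 and 747 cells) at 441 and 34.9 CPM. Other genes differed less among the deepest cells: at 10000 to 20000 UMIs Igfbp5 stood at 1285 and 712 CPM and Ptgs2 at 41.5 and 24.3 CPM, both under 2-fold. The log2 ratio of Mgp was -3.78, -2.05 and -1.39 in the bands from low to high depth.

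Set against narrower classes of the same library, the progenitors kept their leading genes. Against 2195 cells that held Smoc2, Hmcn2 and Col15a1 together, 289 genes were at least 2-fold higher (2.85%) and 306 at least 2-fold lower (3.02%). Cmah (62.3 and 1.35 CPM) and Dact2 (87.4 and 1.93 CPM) led the higher genes, and Cxcl14 (446 and 2911 CPM) and Sept4 (13.1 and 67.3 CPM) the lower ones. Igfbp5, which binds insulin-like growth factors, stood at 1492 and 230 CPM. Against the 203 cells with at least 20 Lpl UMIs per 10000 and a UMI of Apoe, 772 genes were higher (7.62%) and 470 lower (4.64%), and the median log2 ratio of all genes was 0.17. There Igfbp5 stood at 1492 and 1344 CPM and Has1 at 138 and 174 CPM, so these genes did not pass 2-fold, while Dpp4 stood at 215 and 2.95 CPM. Complement C3 stood at 720 CPM in the progenitors, 304 in the Smoc2 class and 1839 in the Lpl class. The Lpl class rests on 1696274 UMIs, against 29370034 of the progenitors. Smoc2, Hmcn2 and Col15a1 in the first class and Lpl and Apoe in the second chose those cells.

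The progenitors were not uniform. Of the genes averaging at least 0.1 UMI at 2000 UMIs per cell, those with the largest Fano factor (variance over mean) among the progenitors were Ccl2 (26.4), Malat1, Gm42418, Hspa1a, Gsn, Hspb1, Hspa1b, Igfbp5 (12.8), Mgp (12.4) and Col3a1 (10.5). The chemokine gene Ccl2 was found in 6.30% of thinned progenitors. Counts of Hspa1a and Hspa1b, near-identical copies, can be split between them. All of Smoc2, Hmcn2 and Col15a1, the genes of the other fibroblast class, were found together in 1332 progenitors (43.3%, interval 41.5 to 45.1), 2 of the 3 in 555, 1 in 680 and none in 510. In comparison all 3 were found together in 68.8% of the other Pdgfra-detected cells and 5.58% of the Rgs5-high cells. After thinning to 2000 UMIs these shares were 19.5% in the progenitors, 43.6% in the other Pdgfra-detected cells and 2.59% in the Rgs5-high cells.

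Splitting the progenitors by this co-detection, a split chosen after values were seen, separated 1745 cells without all 3 genes from 1332 cells with them. Their median depths were 8315 and 10419.5 UMIs. In the cells without all 3, 283 genes were at least 2-fold higher (2.79%) and 334 at least 2-fold lower (3.3%) than in the cells with them. Wnt2 stood at 55.0 CPM (51.3 to 58.9) in the cells without all 3 and 5.76 CPM (4.59 to 7.13) in the cells with them. Sfrp2, a secreted modulator of WNT signals, stood at 121 and 13.7 CPM, Dact2 at 155 and 19.4 CPM, the pentraxin gene Ptx3 at 163 and 20.8 CPM and the matrix gene Postn at 482 and 78.6 CPM. Igfbp5 stood at 2550 and 421 CPM. Krt19, a keratin, stood at 47.7 and 3.08 CPM, and Sbsn and Krtdap, which are known from epidermis, at 121 and 18.4 CPM and at 82.5 and 14.1 CPM.

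In the other direction, Cxcl14 stood at 64.2 CPM (60.2 to 68.4) in the cells without all 3 and 833 CPM (818 to 848) in the cells with them. The steroid-activating enzyme gene Hsd11b1 stood at 17.1 and 136 CPM, Crispld2 at 29.8 and 229 CPM, Mfap4 at 31.6 and 207 CPM and G0s2, an inhibitor of fat breakdown, at 47.6 and 266 CPM. The basement membrane collagens Col4a1 (574 and 1429 CPM) and Col4a2 (265 and 655 CPM) followed. Of the 30 adventitial genes, 17 were 2-fold higher and 0 lower in the cells without all 3. Of 16 Col15a1-type genes 0 were higher and 11 lower, 3 of these having made the split. Of 12 small leucine-rich proteoglycans, Fmod, Kera and Chad were 2-fold higher in the cells without all 3, and Bgn and Podn lower. Fmod, Kera and Chad are also tenocyte markers, and whether tenocyte-like cells are among the cells without all 3 was not tested. Of the rule's own genes, Smpd3 stood at 319 and 69.4 CPM, Pi16 at 2583 and 951 CPM, Dpp4 at 292 and 138 CPM and Cd55 at 674 and 408 CPM. All 5 rule genes were found in 37.4% of the cells without all 3 and 15.5% of the cells with them, although the second were deeper. Cd34 (1492 and 1308 CPM), tdTomato (1098 and 1050 CPM) and Fos (1631 and 1959 CPM) differed little. After thinning, the log2 ratios were 3.70 for Wnt2 and -3.74 for Cxcl14, against 3.26 and -3.70 unthinned.

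**Figure D4:**
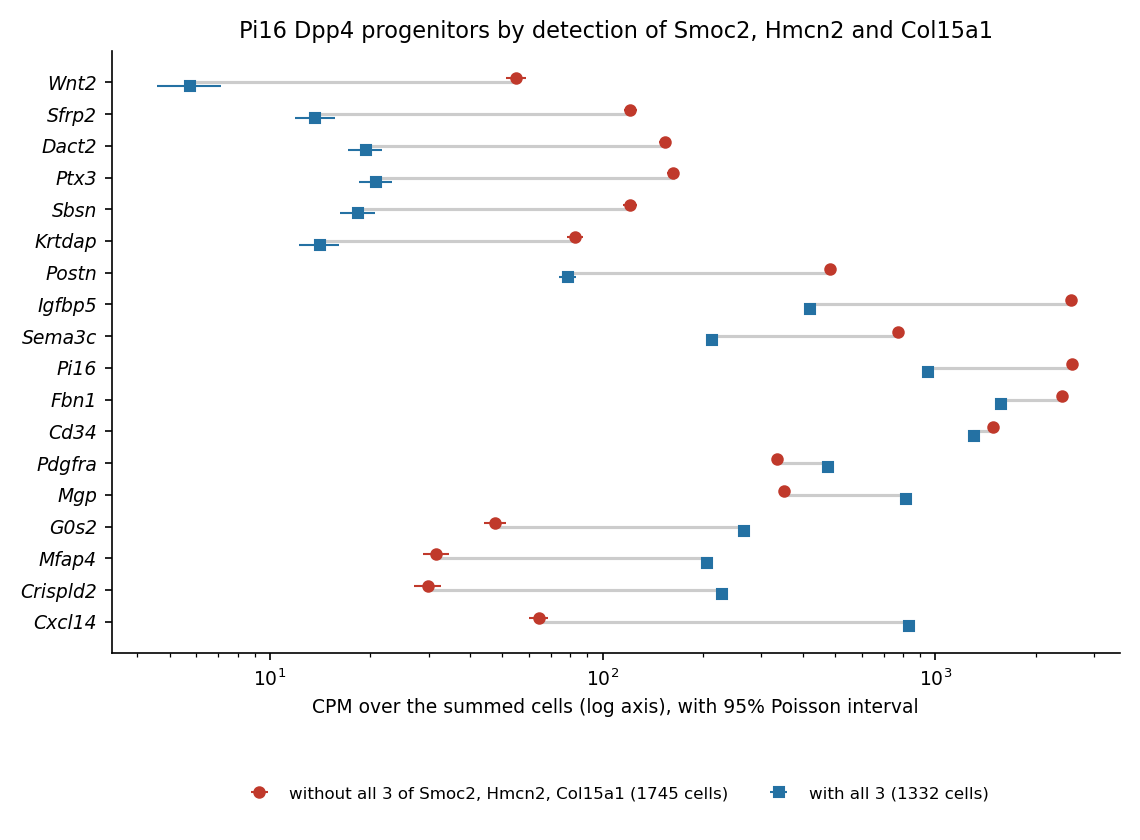
CPM (log axis, with 95% Poisson intervals) of 18 genes in the 1745 progenitors without all 3 of Smoc2, Hmcn2 and Col15a1 (circles) and the 1332 with all 3 (squares). Wnt2 is at 55.0 CPM in circles and 5.76 in squares, Cxcl14 at 64.2 and 833, and Cd34 at 1492 and 1308.

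Igfbp5, itself a leading gene of the split above, was used for a further split. How far the cells of both splits overlap was not counted. A limit of 20 Igfbp5 UMIs per 10000, set after the values were seen, put 777 progenitors above and 2300 below, with 251 between 15 and 25. Whether Igfbp5 divides a range or separate types was not tested. Median depth was 7751 and 9783 UMIs. In the cells above the limit 231 genes were at least 2-fold higher (2.28%) and 360 at least 2-fold lower (3.55%). Of the 30 adventitial genes, 14 were 2-fold higher above the limit and 0 lower. Other genes differed between the splits: Kera, Chad, Sfrp5 and Wif1 were 2-fold lower above the Igfbp5 limit. The same genes were 2-fold higher in the cells without all 3 of Smoc2, Hmcn2 and Col15a1. Akr1c18, a steroid-inactivating reductase, stood at 82.7 CPM above the limit and 2.88 CPM below it, Krt19 at 93.4 and 6.46 CPM, Sbsn at 233 and 24.0 CPM, Krtdap at 149 and 20.2 CPM and Wnt2 at 96.2 and 12.1 CPM. At 2000 UMIs per cell Krt19 was found in 14.5% of cells above the limit and 1.14% of those below. Thbd, which encodes thrombomodulin, stood at 339.9 and 92.7 CPM, and the complement genes C3 and C4b at 1401 and 528 CPM and at 204 and 66.1 CPM. Of 15 heat-shock genes, 0 were 2-fold higher and 3 were 2-fold lower above the limit, with a median log2 ratio of -0.18. The 3 were Hspa1a (1917 and 4210 CPM), Hspa1b and Dnajb1, and their part in this split was not tested.

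Detection of Smpd3, the rarest of the 5 genes, gave a weaker split. The 1480 progenitors with a Smpd3 UMI and the 1597 without one differed by at least 2-fold in 68 genes higher (0.671%) and 92 lower (0.908%). Sfrp2 stood at 115 and 26.1 CPM, Ptx3 at 152 and 40.2 CPM, C3 at 1045 and 435 CPM and the collagen gene Col8a1 at 30.0 and 86.1 CPM. The median depths were 8978.5 and 9700 UMIs.

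Few cells of the sarcoma libraries passed the same rule, which asks whether cells like these occur among the tdTomato cells of the tumours. The share was 1.12%, 0.414%, 1.77% and 0.0586% of kept cells in sarcomas 1 to 4 (83, 34, 123 and 4 cells, mean 0.840% ± 0.760, SD, n = 4), against 37.95% in muscle. At 2000 UMIs per cell it was 0.205%, 0.113%, 0.132% and 0.0309% in sarcomas 1 to 4, against 17.1% in muscle. Each sarcoma thus lay below muscle although its kept cells were deeper. With 4 libraries against 1, the smallest p that an exact permutation test allows is 0.2, so none is given. The tissue (tumours of the shoulder, the head, the head or ear, and the hip, against hindlimb muscle), the reporter copy number and the Smarcb1 genotype go with the groups and cannot be told apart. No barcode of a passing sarcoma cell was shared with the muscle library, and 12 to 22 barcodes of each sarcoma were. All 5 genes were found in 12, 4, 0 and 1 of the passing cells of sarcomas 1 to 4, and in sarcoma 3 111 of the 123 had only 3.

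**Figure D5:**
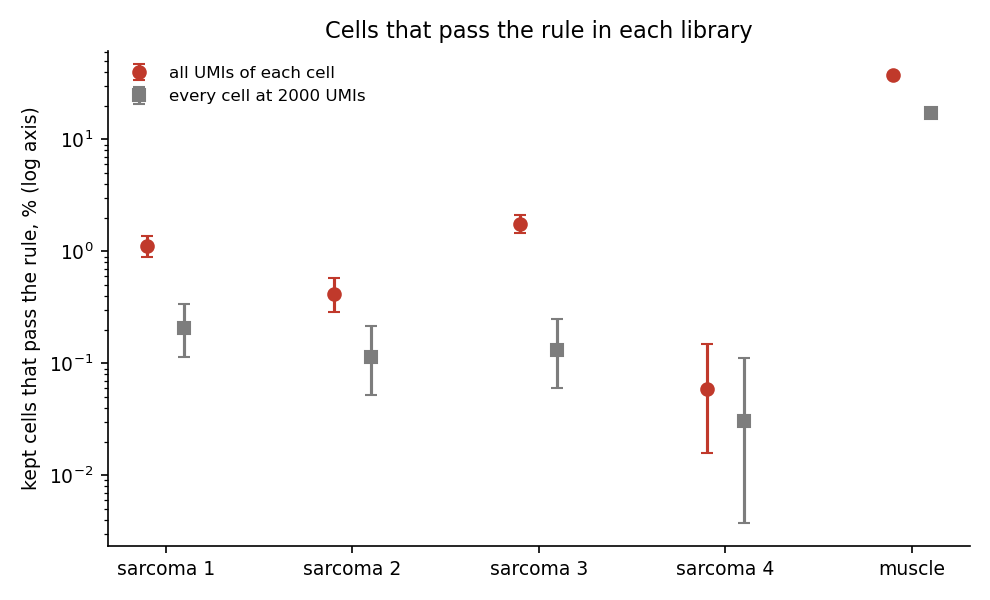
Share of kept cells that pass the rule in each library (percent, log axis) with 95% exact binomial intervals, from all UMIs (circles) and with every cell at 2000 UMIs (squares). The sarcomas lie between 0.0586% and 1.77% on all UMIs and muscle at 37.95%.

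Levels were read in the sarcomas with at least 50 passing cells, sarcomas 1 and 3, against their own other Pdgfra-detected cells. Smarcb1 stood at 50.4 CPM (41.0 to 61.3) in the passing cells of sarcoma 1 and 1.11 CPM in its other Pdgfra-detected cells, and at 61.8 CPM (53.1 to 71.4) and 18.2 CPM in sarcoma 3. Summed over the class, the other Pdgfra-detected cells of these libraries thus held less Smarcb1 than the passing cells. What share of them lacked Smarcb1 cannot be read from these sums. Cdkn2a, a cell-cycle inhibitor gene, ran the other way, at 34.3 and 194 CPM in sarcoma 1 and 5.77 and 121 CPM in sarcoma 3. Mfap5 stood at 3705 and 43.8 CPM in sarcoma 1, 2900 and 676 CPM in sarcoma 3, and 2918 and 1258 CPM in muscle. Fbn1 stood at 2087 and 138 CPM, 1503 and 360 CPM, and 1986 and 687 CPM in the same libraries. Sema3c was higher in the passing cells of sarcoma 1 (416 and 143 CPM) and not in those of sarcoma 3 (64.1 and 87.0 CPM), and Wnt2 stood at 119.5 and 22.5 CPM in sarcoma 1 and 8.49 and 11.5 CPM in sarcoma 3. Of the genes higher in the muscle progenitors and measured well enough, 63 of 137 were at least 2-fold higher in the passing cells of sarcoma 1 (46.0%, against 8.60% of all genes there) and 66 of 165 in those of sarcoma 3 (40.0%, against 6.88%). Of the same genes 20 (14.6%) were at least 2-fold lower in sarcoma 1, against 8.50% of all genes, and 27 (16.4%) in sarcoma 3, against 6.64%. Of the genes lower in the muscle progenitors, 48 of 166 were higher (28.9%) and 74 lower (44.6%) in the passing cells of sarcoma 1. In sarcoma 3, 74 of 235 were higher (31.5%) and 48 lower (20.4%), so there more of them stood opposite to muscle than with it.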

How the data were processed

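The files used are 5 matrices of raw UMI counts per gene and cell barcode, deposited by the authors with no normalization. Per the file headers, Cell Ranger 6.0.1 made them; the submitters' processing notes name mm10, and per the labels' protocols the libraries came from a 10x Genomics 3' kit and sorted cells. The annotation release and the cell-calling settings were not stated. Total counts were 64061069 in muscle and 151903246 to 213271163 in the sarcomas. The cells, gene lists and comparisons were chosen with earlier results of these data known.

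Cells were filtered and classed as the report states. Counts were summed per class, scaled to CPM and compared as log2 ratios, called at 2-fold, with exact Poisson intervals; a class at 0 was set to 3 counts. No test was made, since the muscle group has 1 library and cells are not replicates. Shares carry exact binomial (Clopper-Pearson) intervals. Thinning drew 2000 UMIs per cell without replacement and left out 45 progenitors and 339 other muscle cells. Doublets were not removed: Scrublet (scanpy 1.11.5) called 5 of 8107 muscle cells (0.0617%), so it has not worked, and removal of the highest scores was an alternative. TMM factors of edgeR 4.0.16 (R 4.3.3) on the class sums were another. Named genes were the 5 of the rule, the 15 highest and 10 or 15 lowest ratios among genes with at least 50 CPM in the higher class, members of each list by level, the 10 largest Fano factors and 23 others; 2-fold genes of lists, leading genes of the narrower classes and genes of the splits inside the progenitors were named after their values were seen. Some genes that these rules name are not reported here. Gene positions are from the GENCODE annotation of GRCm38. The ratios were tested on simulated sums. Sums used pandas 2.3.3 and numpy 2.4.6, intervals scipy 1.17.1 and figures matplotlib 3.10.9, under Python 3.11.15.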

Additional observations from a re-analysis of the deposited data

Results flagged for a closer look

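Only a short list of named genes was looked up here. In 3 of them the passing cells of sarcomas 1 and 3 stood on the opposite side of the other Pdgfra-detected cells from the muscle progenitors. Such reversals were not limited to these 3. Of all genes lower in the muscle progenitors, 48 of 166 were 2-fold higher in sarcoma 1 and 74 of 235 in sarcoma 3. Of those higher in muscle, 20 of 137 and 27 of 165 were 2-fold lower. The log2 ratio of Apoe was 5.55 in sarcoma 1 and 1.27 in sarcoma 3, against -2.89 in muscle. The log2 ratio of Smoc2 was 4.38 in sarcoma 1 and 1.42 in sarcoma 3, against -1.18 in muscle. The log2 ratio of Lpl was 1.26 in sarcoma 1 and 1.73 in sarcoma 3, against -1.25 in muscle. The difference between sarcoma and muscle was not tested. The levels of Apoe in the passing cells were 322 CPM in sarcoma 1 and 216 CPM in sarcoma 3, against 197 CPM in the muscle progenitors, and those in the other Pdgfra-detected cells were 6.89 and 89.4 CPM in sarcomas 1 and 3, against 1459 CPM in muscle. The cells compared with also held 1.11 and 18.2 CPM of Smarcb1 in sarcomas 1 and 3, against 87.5 CPM in muscle, so they are not the same kind of comparator. Only 83 and 123 cells passed in these sarcomas.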

How the results depend on the processing

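No paired analysis was possible because the groups share only replicate number 1. Of 179 ratios of named genes past 2-fold, 151 to 179 remained past 2-fold under each alternative and 0 changed sign. The lowest number was with at least 2 of 5 genes required. Leaving out the filter on low genes alters no ratio, so its 179 was fixed in advance. Many of these genes were named for their large ratios in the same cells, and the 5 rule genes are among them. Changes of sign were therefore unlikely from the start. Of all alternative values for single genes, 2071 lay outside the counting interval of the reported ratio and 1993 within it. Among 98 alternative values of counts and shares, 81 stayed within 1.5 times (counts), within their interval (muscle share) or within 1 SD of the sarcomas (their mean share). Without a filter on low genes, the counts were 726 higher and 2463 lower against all other cells, 829 and 1597 against other Pdgfra-detected cells, 1042 and 1252 against the Smoc2 class, and 2940 lower against the Lpl class. With classes called again on counts thinned to 2000 UMIs, 635 genes were lower against other Pdgfra-detected cells and 470 higher and 648 lower against the Smoc2 class. With thinned counts in the classes as called, 1228 were higher against the Lpl class, and with at least 2 of 5 genes 199 were lower against the Smoc2 class. The muscle share was 54.7% with at least 2 of 5 genes, 24.3% with at least 4, 17.1% at 2000 UMIs and 40.1% with at least 200 genes and at most 5% mitochondrial UMIs. The mean sarcoma share was 5.04% with at least 2 of 5, where sarcoma 3 had 15.9%, 0.263% with at least 4, 0.120% at 2000 UMIs, against 0.840% as reported, and 0.530% to 1.10% without each sarcoma in turn, the lowest without sarcoma 3. The share of higher calls against the Lpl class was 62.2%, and 28.1% without the filter. Alternatives with cells of 5000 to 10000 UMIs, and those inside the progenitors, were chosen after seeing the data. The cause of these changes was not tested. Depth limits genes of low level in the 203 Lpl-class cells and in the sarcomas with few passing cells.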
